A study of Mus musculus with 8 samples.

Results

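The angiopoietin family was examined in SV-LECs, an SV40-immortalized line of mouse lymphatic endothelial cells derived from mesenteric adventitial tissue, that had either been left untreated or received 10 ng/ml TGFβ1 for 72 h. Each group had 4 RNA libraries, 8 together, and the study describes the samples of a group as technical replicates, so the errors and p-values below cover the spread between libraries of one line and not between independent experiments. The members are the 9 genes Angpt1, Angpt2, Angpt4, Angptl2, Angptl4, Angptl6, Angptl7, Tek and Tie1 out of 55471 genes in the count table, each found by its symbol. They were selected partly on their counts and their difference between the groups in these same libraries. Their levels and fold changes are therefore given as descriptions, with standard errors and every library's value but without p-values. Of the 9 genes, 6 passed the filter on low counts and 3 (Angpt1, Angpt2 and Tie1) did not.

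Angiopoietins are secreted ligands of TIE2, the receptor tyrosine kinase encoded by Tek. ANGPT1 activates the receptor and keeps endothelium quiescent, whereas ANGPT2, which endothelial cells themselves make, acts as an agonist or an antagonist depending on the setting and is needed for lymphatic development. TIE1 has no well established angiopoietin of its own and modulates TIE2. The angiopoietin-like proteins share the coiled-coil and fibrinogen-like parts but do not bind TIE2, and act instead on lipases, on integrins and on other cell surface receptors.

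The libraries held 19182616 to 26077972 counts in untreated and 18952504 to 26386941 counts in TGFβ1-treated SV-LECs. CPM denotes counts scaled to the TMM-normalized size of each library, and a floor of 3 counts, which allows for counting error only, lay between 0.113 and 0.162 CPM per library. Several defining markers of the labelled cell type were at or near 0. Of 12 endothelial marker genes, Erg had no count in any library, Cdh5, Emcn, Cldn5 and Robo4 had at most 3, and Pecam1 had 1 to 5. Of 10 lymphatic markers, Ccl21a had no count, Prox1, Lyve1 and Reln had at most 3, while Pdpn (342 ± 19.5 CPM, SD, n = 4, in untreated cells), Nrp2 and Flt4 were well detected. The summed endothelial list went from between 96.3 and 102 CPM in untreated to between 210 and 221 CPM in treated libraries, with most counts from Eng, Flt1 and Kdr. These and Esam were called higher, whereas Egfl7 was called lower (log2 fold change -0.29). The summed lymphatic list lay between 413 and 449 CPM in untreated and between 427 and 441 CPM in treated libraries. Most of this sum was Pdpn, which was called lower (log2 fold change -0.13), while Flt4 (0.44) and Nrp2 (0.41) were called higher. Mmrn1, too low to be tested, had 9 to 15 counts in untreated and 0 to 2 in treated libraries, without overlap. Itga9 (1 to 5 and 3 to 14 counts) and Sox18 (0 to 2 and 2 to 5) were not tested either, and their groups overlapped. The sum of 8 mural cell markers went from between 97.2 and 106 to between 376 and 397 CPM, led by Notch3, and Kcnj8 and Abcc9 had at most 2 counts. The sum of 5 fibroblast markers went from between 3161 and 4497 to between 5465 and 6594 CPM and was mostly Col1a1, while Dcn and Pdgfra were lower after TGFβ1. Adipocyte markers summed to at most 0.203 CPM, epithelial markers to at most 1.05 CPM, and of 4 leukocyte markers only Cd68 exceeded 1 count in any library. The part of these shifts in the results below was not tested, and in cultures sequenced in bulk, fewer cells of a type and less RNA per cell cannot be told apart.

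The promoters of 4 members that differed between the groups are shown from the RefSeq promoter table so that those of Angpt4 and Angptl2, which were higher after TGFβ1, can be read beside those of Angptl6 and Angptl7, which were lower. Each is the 250 bases before the RefSeq start of transcription on GRCm38.p6, written 5′ to 3′ on the strand of the gene, with capitals at matches to the letters searched. The windows are chr2:151910957-151911206 on the plus strand for Angpt4, chr2:33215711-33215960 on the plus strand for Angptl2, chr9:20879711-20879960 on the minus strand for Angptl6 and chr4:148500463-148500712 on the minus strand for Angptl7.
Angpt4: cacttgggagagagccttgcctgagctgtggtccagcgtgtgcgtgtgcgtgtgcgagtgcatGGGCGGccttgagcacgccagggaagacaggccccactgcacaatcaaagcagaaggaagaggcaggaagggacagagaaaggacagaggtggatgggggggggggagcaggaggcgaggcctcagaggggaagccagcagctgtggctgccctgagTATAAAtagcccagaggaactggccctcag
Angptl2: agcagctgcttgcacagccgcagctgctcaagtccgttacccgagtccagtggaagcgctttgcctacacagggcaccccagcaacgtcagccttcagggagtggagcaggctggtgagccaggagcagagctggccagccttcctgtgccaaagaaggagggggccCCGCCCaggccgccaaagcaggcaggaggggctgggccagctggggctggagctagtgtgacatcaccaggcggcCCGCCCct
Angptl6: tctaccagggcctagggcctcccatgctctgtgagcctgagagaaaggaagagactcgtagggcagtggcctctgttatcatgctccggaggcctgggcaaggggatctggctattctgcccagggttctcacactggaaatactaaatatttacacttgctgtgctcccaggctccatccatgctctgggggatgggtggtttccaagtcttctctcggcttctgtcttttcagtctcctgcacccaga
Angptl7: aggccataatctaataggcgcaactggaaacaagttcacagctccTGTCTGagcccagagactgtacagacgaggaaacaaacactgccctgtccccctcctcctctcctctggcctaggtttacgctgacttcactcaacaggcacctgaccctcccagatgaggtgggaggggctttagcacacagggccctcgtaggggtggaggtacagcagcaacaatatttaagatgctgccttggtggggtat
The letters searched on both strands were CAGACA (the core bound by SMAD proteins), TGANTCA (an AP-1 site), ACGTG (the core of hypoxia response elements), GTAAACA (a FOXO site), AGGTCA (a nuclear receptor half-site), GGGCGG (a GC box) and TATAAA (the Goldberg-Hogness core promoter element, or TATA box). Angpt4 held 1 TATA box, starting 30 bases before the start, and 1 GC box, and Angptl2 held 2 GC boxes. Angptl7 held 1 CAGACA core, and Angptl6 held none of the letters. Among 32851 promoter windows of this length, 17.1% hold the CAGACA core, 32.7% the GC box and 12.4% the TATA box. GC content was 62.4% in Angpt4, 66.8% in Angptl2, 54.8% in Angptl6 and 54.4% in Angptl7, against a median of 52.4% over all windows. It was 60.4% in Tie1, which had no counts, and 51.2% in Tek, which was not called. Angptl4, Angpt1 and Angpt2 had no entry among these promoters. Whether GC content goes with the direction of change was not tested.

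Among the members tested, Angptl4, Angptl2 and Angpt4 were higher and Angptl6 and Angptl7 lower in TGFβ1-treated than in untreated SV-LECs, and Tek was not called. By edgeR's likelihood ratio test at a false discovery rate (FDR, Benjamini-Hochberg) under 0.05, 3 of the 6 members tested were thus called higher and 2 lower. Of all 13818 genes tested, 37.6% were called higher and 38.0% lower, together 75.6%, and nothing is read from the members' count because they were chosen with this comparison known. Of the 6 members tested, the 5 called had an absolute log2 fold change above 1.5, and Tek did not. Of all genes tested, 9.11% exceeded that size, and the median absolute value was 0.39. In 5 of the 6 members tested, all except Tek, no library of one group overlapped the other group, as was so for 69.8% of the genes tested. Nothing is read from these 2 comparisons either, for the same reason as for the count. 

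**Figure D1:**
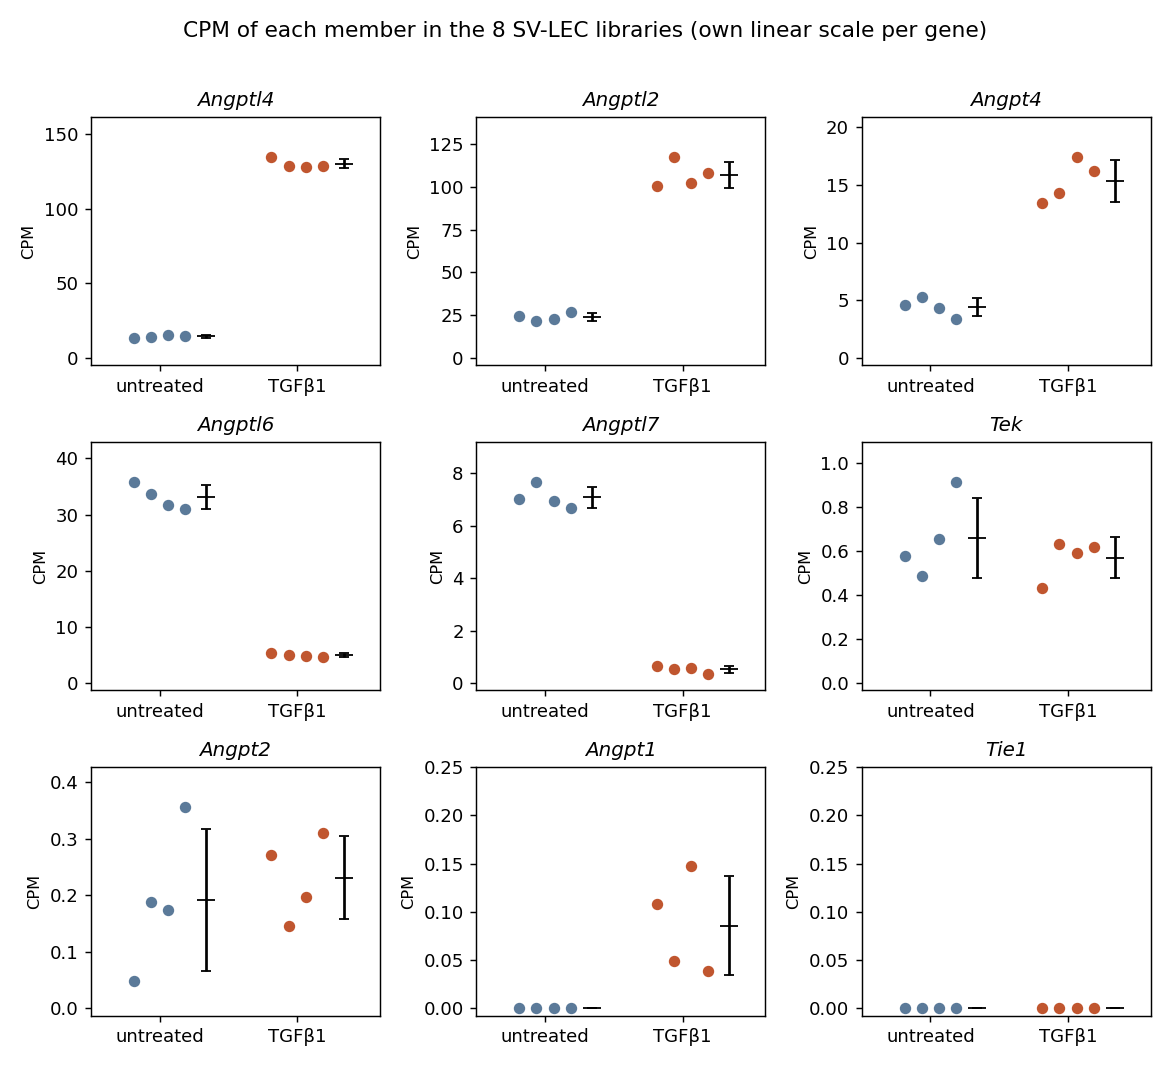
CPM of the 9 members in each library, with untreated libraries on the left (blue) and TGFβ1-treated libraries on the right (orange) of each panel; black marks are the mean ± SD of n = 4 libraries, and each panel has its own linear axis that includes 0. Angptl4, Angptl2 and Angpt4 lie higher in all 4 treated libraries, Angptl6 and Angptl7 lie lower, Tek and Angpt2 overlap, and Angpt1 and Tie1 stay under 0.2 CPM.

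Angptl4 encodes a secreted inhibitor of lipoprotein lipase that is known to be induced by fatty acids, hypoxia and glucocorticoids, and it lies on chromosome 17 of GRCm38 from 33773750 to 33781830. The 4 untreated libraries had 13.5, 14.3, 15.5 and 14.5 CPM, and the 4 treated libraries had 134, 128, 128 and 128 CPM. Every treated library thus lay far above every untreated one, and the spread within a group was small beside the gap. The means were 14.4 ± 0.810 and 130 ± 3.05 CPM (SD, n = 4 per group), which is 3.17 ± 0.0583 (standard error, SE) on the log2 scale, or 8.98-fold. Of the log2 fold changes of all genes tested, 98.6% were at or below that of Angptl4.

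Angptl2 encodes a secreted protein known for signalling through integrin α5β1 in inflammation, and lies on chromosome 2 from 33216069 to 33247717, inside Ralgps1 on the opposite strand. It had 24.3, 21.7, 22.7 and 27.2 CPM in the untreated libraries and 100.2, 117, 102 and 108 CPM in the treated ones. All treated libraries were again above all untreated ones, although the treated values spread more widely than those of Angptl4. The means of 24.0 ± 2.39 and 107 ± 7.66 CPM differed by 2.16 ± 0.0720 (SE) on the log2 scale, or 4.47-fold. No exon base is shared with Ralgps1, which was not called (log2 fold change 0.09, edgeR FDR = 0.253).

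Angpt4 encodes the mouse angiopoietin that is least studied of the TIE2 ligands, and lies on the same chromosome from 151911210 to 151945337. It was the only angiopoietin in the strict sense with more than 8 counts in any library. The untreated libraries had 4.58, 5.30, 4.32 and 3.40 CPM, from 67 to 141 counts, and the treated libraries 13.4, 14.3, 17.4 and 16.2 CPM, from 248 to 417 counts. The lowest treated library exceeded the highest untreated one by more than the range within either group. The means of 4.40 ± 0.784 and 15.3 ± 1.82 CPM differed by 1.79 ± 0.130 (SE) on the log2 scale, or 3.46-fold.

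The other angiopoietins were barely detected. Angpt2, which is usually a leading product of endothelial cells, had 1, 5, 4 and 7 counts in the untreated libraries and 5, 3, 4 and 8 in the treated ones. The groups overlapped, and the pooled 17 and 20 counts gave a ratio of treated to untreated CPM of 1.24 with an exact 95% interval from 0.619 to 2.53, an interval that covers counting error only and not the spread between libraries. No difference was detectable at this depth. Angpt2 lies inside Mcph1 on the opposite strand without a shared exon base. Angpt1, the agonist that mural and other mesenchymal cells typically supply, had no count in any untreated library and 2, 1, 3 and 1 counts in the treated ones. Both groups were at or under the floor of 3 counts, so no fold is given. Of the exon bases of Angpt1, 14.2% overlap those of Gm17473 on the opposite strand, a gene with no count in any library.

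Angptl6 and Angptl7 went the other way. Angptl6 encodes a secreted protein, also called angiopoietin-related growth factor, that is known mainly from liver and blood, and lies on chromosome 9 from 20873808 to 20879727. The untreated libraries had 35.8, 33.7, 31.7 and 31.0 CPM and the treated libraries 5.46, 5.01, 4.87 and 4.74 CPM. All 4 treated libraries lay below all 4 untreated ones. The means of 33.1 ± 2.14 and 5.02 ± 0.316 CPM differed by -2.72 ± 0.0929 (SE) on the log2 scale, which is 6.61-fold lower. Of its stretches of 75 bases, the length of a read, 12.7% also lie on the opposite strand of A230050P20Rik, which was called higher (log2 fold change 0.33, standard error 0.0742), and the strand setting used in counting is not given in the sources used here.

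Angptl7, known from the cornea and the outflow tract of the eye, lies on chromosome 4 from 148495183 to 148500460, inside Mtor on the opposite strand and without a shared exon base. Its counts were 146, 204, 159 and 132 in untreated and 12, 11, 12 and 9 in treated libraries, so the treated values lay above the floor but rested on few reads. In CPM, the untreated libraries ranged from 6.69 to 7.66 and the treated ones from 0.349 to 0.649. The means of 7.08 ± 0.412 and 0.531 ± 0.130 CPM differed by -3.76 ± 0.234 (SE) on the log2 scale, or 13.6-fold lower, the largest of the family, and 0.174% of the genes tested had a log2 fold change at or below it. Mtor was called higher by 0.33 on the log2 scale (SE 0.0570).

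**Figure D2:**
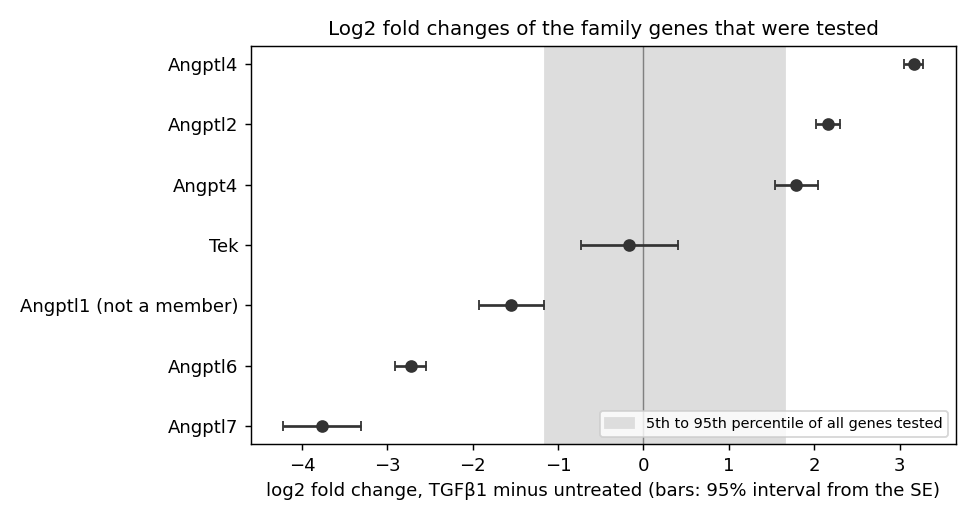
Log2 fold change (TGFβ1-treated minus untreated) of the 6 members tested and of Angptl1, a family gene that is not a member; points are edgeR estimates, bars their 95% intervals from the standard error, and the grey band holds the 5th to 95th percentile of all 13818 genes tested, from -1.15 to 1.66. The intervals of Angptl4, Angptl2, Angptl6, Angptl7 and Angptl1 lie outside the band, that of Angpt4 reaches into it, and that of Tek spans 0.

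Of the receptors, Tek was low and Tie1 was not detected in either group. Tek, encoding TIE2, had 12, 13, 15 and 18 counts in untreated and 8, 13, 12 and 16 counts in treated libraries, or 0.578, 0.488, 0.655 and 0.913 against 0.433, 0.633, 0.590 and 0.621 CPM. The ranges overlapped, and one untreated library was above all others. The log2 fold change was -0.16 with a 95% interval from -0.73 to 0.40, an estimate that became 0.01 without untreated replicate 4. Tie1 had no count in any of the 8 libraries. A count of 0 allows up to 0.113 to 0.162 CPM per library, or 0.0333 CPM over the pooled untreated and 0.0352 CPM over the pooled treated libraries. Both receptor genes lie on chromosome 4, Tek from 94739289 to 94874976 and Tie1 from 118471191 to 118490061.

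To compare levels between genes, CPM was divided by the length of the merged exons of each gene in kilobases. In untreated SV-LECs the order began with Angptl6 at 20.9 ± 1.35 CPM per kilobase (SD, n = 4), followed by Angptl4 (4.08 ± 0.229), Angptl2 (3.81 ± 0.380), Angptl7 (3.28 ± 0.191) and Angpt4 (1.88 ± 0.336). Angptl4 and Angptl2 overlapped in their libraries, as did Angptl2 and Angptl7, whereas Angptl6 stood above and Angpt4 below all of these. Tek (0.140 ± 0.0388) and Angpt2 (0.0519 ± 0.0341) followed without overlapping each other. After TGFβ1 the order was Angptl4 (36.7 ± 0.860), Angptl2 (17.0 ± 1.22), Angpt4 (6.56 ± 0.778), Angptl6 (3.17 ± 0.200), Angptl7 (0.246 ± 0.0602), Tek (0.121 ± 0.0197), Angpt2 (0.0626 ± 0.0200) and Angpt1 (0.0165 ± 0.00986), and no neighbours overlapped. With the length of the longest transcript in place of merged exons, Angptl2 moved to 6.74 CPM per kilobase in untreated cells, above Angptl4 at 4.37, and to 30.0 in treated cells, still below Angptl4 at 39.2.

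The 9 members together amounted to 34.1 ± 1.30 CPM per kilobase in untreated and 63.8 ± 0.519 in treated libraries. Angptl6 made up 61.2% of this sum before and 4.97% after treatment. Angptl4 went from 11.9% to 57.4% and Angptl2 from 11.2% to 26.6%. With the longest transcript as gene length, an alternative for these shares that was chosen after seeing the data, Angptl2 went from 18.0% to 37.8%, above Angptl4 (11.7%) in untreated and below it (49.4%) in treated cells, and Angptl6 went from 55.9% to 3.99%. Tek, Angpt2, Angpt1 and Tie1 each held less than 1% of the sum in both groups. Measured against the 13814 tested genes with a known length, Angptl6 was above 80.3% of them per length in untreated and above 34.6% in treated cells, while Angptl4 went from above 39.7% to above 89.7%.

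**Figure D3:**
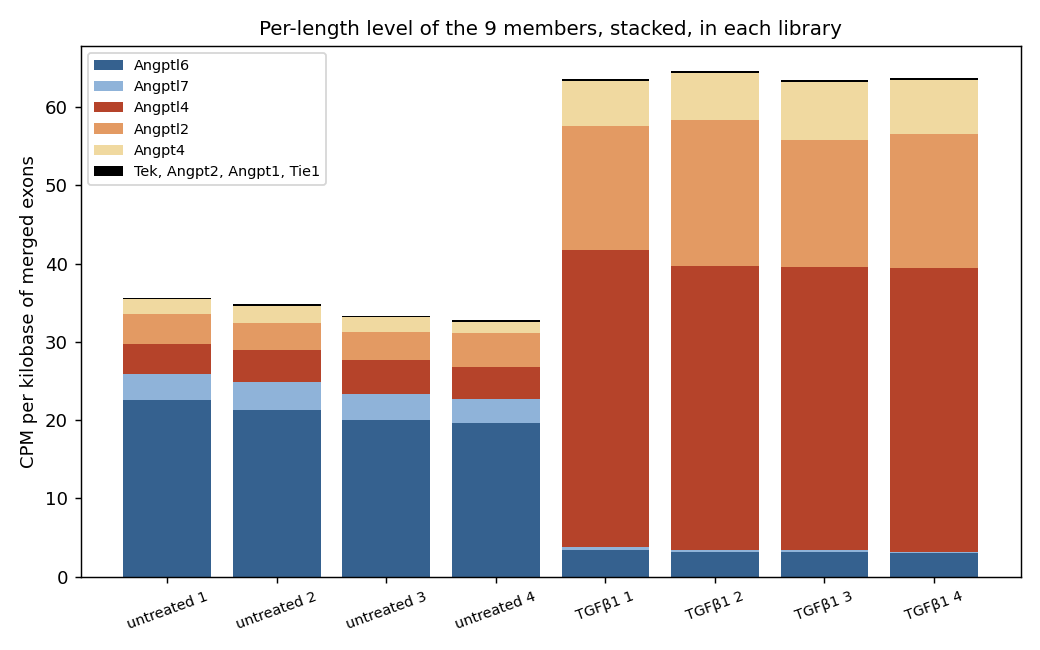
CPM per kilobase of merged exons in each of the 8 libraries, stacked over the 9 members (linear axis from 0; no error bars, since each bar is 1 library). Angptl6, in dark blue, fills most of each untreated bar, and Angptl4 and Angptl2, in red and orange, fill most of each TGFβ1 bar.

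Family genes outside the 9 were looked up as well. These genes and the gene lists below were chosen with earlier results of these data known. Their FDRs therefore describe the difference between these libraries and are not independent tests. Angptl1, a secreted protein described as restraining endothelial growth, had 3.23, 3.34, 2.62 and 2.64 CPM in untreated and 1.08, 0.779, 1.23 and 0.970 CPM in treated libraries. The groups did not overlap, and Angptl1 fell by 1.55 on the log2 scale (SE 0.194, edgeR FDR = 9.10e-17). Angptl8 had at most 7 counts in any library and was not tested.

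Of 23 genes for partners of the TIE receptors and the pathway below them, 21 were tested, 9 were higher and 7 lower, and 76.2% of those tested were called, against 75.6% of all genes. The median log2 fold change was 0.02, against -0.01 over all genes tested. Ptprb, encoding the endothelial phosphatase VE-PTP that holds TIE2 inactive, fell from 10.9 ± 0.487 to 8.07 ± 1.09 CPM (SD, n = 4), or -0.43 ± 0.103 (SE) on the log2 scale, at an edgeR FDR of 5.04e-05. Svep1, encoding a large matrix protein that binds TIE1, fell from 202 ± 17.4 to 126 ± 5.88 CPM, or -0.68 ± 0.0604 (SE) on the log2 scale. Foxo1, the transcription factor that TIE2 signalling restrains, had 24.6 ± 1.96 and 25.0 ± 1.05 CPM and was not called (edgeR FDR = 0.780). Its relative Foxo3 rose by 0.97 (SE 0.0448), and the adaptor gene Grb14 fell by 1.01 on the log2 scale (SE 0.0838), the largest changes in the list.

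Lipoprotein lipase, as a protein, is the best known target of ANGPTL4. The values below are RNA levels, and a link between them and Angptl4 was not tested. Of 11 genes for lipases, their anchoring and maturation, and the convertases that cleave angiopoietin-like proteins, 8 were tested, 2 were higher and 5 lower, which is 87.5% called against 75.6% of all genes, with a median log2 fold change of -0.40 against -0.01 over all genes tested. Lpl itself fell from 686 ± 34.9 to 362 ± 21.4 CPM, or -0.92 ± 0.0520 (SE) on the log2 scale, at an edgeR FDR of 2.17e-68, and all 4 treated libraries were below all untreated ones. Lipg, encoding endothelial lipase, fell by 1.95 (SE 0.199) from a low level of 4.00 ± 0.649 CPM. Pcsk5 fell by 0.68 and Furin rose by 0.34 on the log2 scale, both of which encode proprotein convertases. Gpihbp1, which carries lipoprotein lipase across capillary endothelium, had no count in any library.

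Of 12 genes for transcription factors known to act on Angptl4, 10 were tested, 3 were higher and 4 lower, so 70.0% were called against 75.6% of all genes, and the median log2 fold change was -0.02. Epas1 rose by 1.77 on the log2 scale (SE 0.202) from 1.45 ± 0.482 CPM, Smad3 rose by 0.71 (SE 0.0486), and Rxra fell by 0.47 (SE 0.0553). Hif1a, at 670 ± 32.0 CPM in untreated cells, fell by 0.41 on the log2 scale (SE 0.0446). Pparg stayed at 13 to 19 counts per library and was not called (edgeR FDR = 0.898), Ppara was too low to be tested, and Ppard was not analysed here. Angptl4 is itself a target gene of the PPAR nuclear receptors. Of 11 other such target genes, 9 were tested, 6 were higher and 1 was lower, with a median log2 fold change of 0.80. That is 77.8% called in either direction against 75.6% of all genes, of which 37.6% were higher. Pdk4, which restrains glucose oxidation, rose by 2.24 (SE 0.170), Cpt1a, the entry enzyme of mitochondrial fatty acid oxidation, by 1.42 (SE 0.0496) and the lipid droplet gene Plin2 by 1.34 on the log2 scale (SE 0.0540). Hadha (log2 fold change 0.02) and Fabp4 (log2 fold change 0.57) were not called, with edgeR FDRs of 0.738 and 0.0797.

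Integrins and other surface proteins have been described as receptors of angiopoietins and angiopoietin-like proteins. Of 9 such genes, 7 were tested and 7 were higher, with a median log2 fold change of 0.65, where 37.6% of all genes were higher. Itgb3 rose from 4.67 ± 0.376 to 20.0 ± 1.53 CPM, or 2.10 ± 0.102 (SE) on the log2 scale, and Itgb5 from 172 ± 4.12 to 382 ± 5.19 CPM, or 1.15 ± 0.0377 (SE) on the log2 scale. Cdh11, a mesenchymal cadherin, rose by 0.73 (SE 0.0344). Itga5 and Itgb1, which encode the chains of the receptor described for ANGPTL2, rose by 0.55 and 0.47 on the log2 scale, and Itgav by 0.58. Pirb, encoding a leukocyte receptor of angiopoietin-like proteins, had no count, and Itgam had no count in untreated cells and was not tested.

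**Figure D4:**
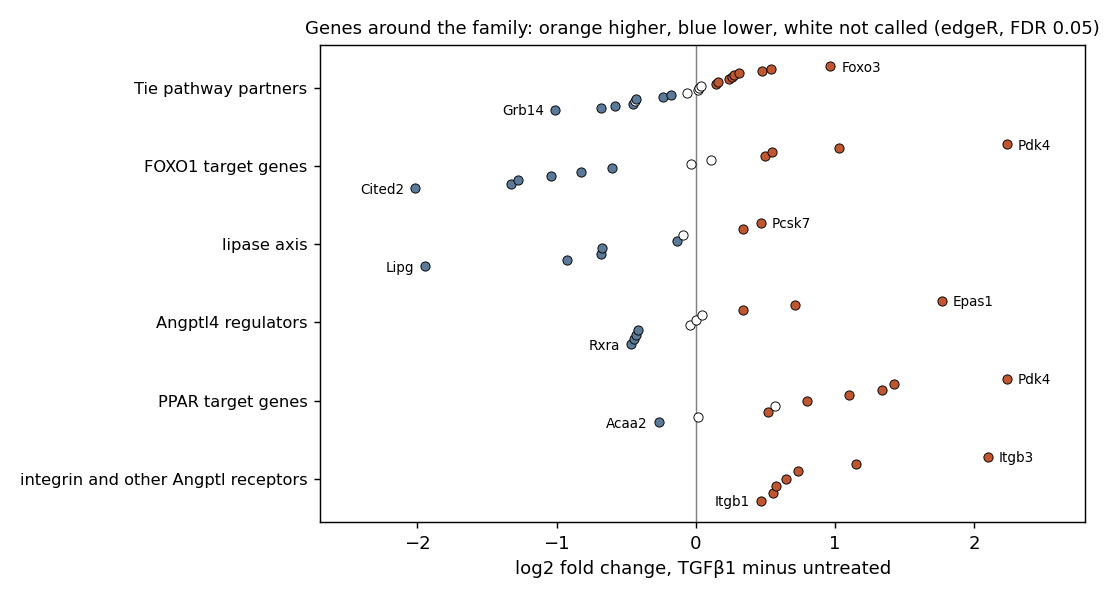
Log2 fold change (TGFβ1-treated minus untreated) of each tested gene in 6 lists around the family; orange points were called higher and blue points lower by edgeR's likelihood ratio test at an FDR under 0.05, white points were not called, and the lowest and highest gene of each list are named. All 7 tested receptor genes lie above 0, and Lipg is the lowest gene of the lipase list.

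The genes whose pattern over the 8 libraries was most like that of Angptl4, by the Euclidean distance of centred log2 CPM, were Serpine2 (distance 0.200), Nrp1 (0.288) and Slc4a11 (0.294), against a median distance of 4.49 over all genes tested. Serpine2, encoding a protease inhibitor, had a log2 fold change of 3.20, and Nrp1, encoding a co-receptor of VEGF and semaphorins, had 3.00. For Angptl7, the member with the lowest log2 fold change, the nearest genes were Entpd3 (distance 0.533), Gpc3 (0.577) and Sfrp2 (0.596), against a median of 5.06. With 4 libraries in each of 2 groups, such a distance reflects chiefly the size of the difference between the groups.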

How the data were processed

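RNA of untreated and TGFβ1-treated SV-LECs was sequenced from stranded poly(A) libraries with single-end reads of 75 bases. Per the labels, the authors demultiplexed with bcl2fastq 2.20.0.422, aligned to GRCm38 with STAR 2.7.3a and counted reads per gene with featureCounts 1.5.1 (versions from the submitters' processing notes), and they deposited raw counts without normalization. The annotation release and the strand setting are not given in the sources used here. Libraries were grouped by their titles.

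The analysis used edgeR 4.0.16 under R 4.3.3. Low genes were removed by filterByExpr (minimum count 10, by group), libraries were scaled by TMM, and treated libraries were tested against untreated ones with glmFit and glmLRT, the test the study names, with a prior count of 0.125. FDRs were adjusted by Benjamini-Hochberg over all 13818 genes tested, with a threshold of 0.05. Standard errors came from the fitted negative binomial variances. The pipeline was tested on simulated data. Total counts were 18952504 to 26386941 per library. On the TMM-normalized library sizes a floor of 3 counts lay at 0.113 to 0.162 CPM. For the 12 pairs of libraries within groups, chi-square per degree of freedom was 2.37 to 7.84, above sampling noise. Gene positions, lengths and stretches of 75 bases shared between genes came from GENCODE M21 on GRCm38, which matched 55230 genes. Promoters came from the RefSeq table of GRCm38.p6, which had an entry for 6 of the 9 members.

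The members and gene lists were chosen with earlier results of these data known. Named genes are the 9 members, family genes outside them, the 3 genes with the largest absolute log2 fold change among those called in each list, the direct partners of a member (fixed as a list that includes Hif1a, Gpihbp1 and Foxo1), genes overlapping a member, marker genes at 0 or high, and the 3 nearest genes by pattern for Angptl4 and Angptl7. Other listed genes are named as examples chosen after their values were seen: Ppara, Pparg, Esm1, Hadha, Fabp4, Itgam and Pirb, and the markers outside that rule. Alternatives were the quasi-likelihood test, DESeq2 1.42.0, DESeq2 size factors, total counts, no filter on low counts, 1 CPM in at least 4 libraries, the replicate number as a block, each library left out in turn, a prior count of 2 and the longest transcript as gene length. Quantitative PCR, ELISA and invasion assays were not analysed here.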

Additional observations from a re-analysis of the deposited data

Results flagged for a closer look

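In TGFβ1-treated SV-LECs, Angptl4 in replicate 1 had 134.4 CPM, apart from the other 3 libraries of the group, of which the nearest had 128.5 CPM. The gap was 0.937 of the range of the group, above Dixon's 95% critical value for 4 samples. It was the 1 such case among 15 groups examined, and chance gives about 1 in 20. Without this library the log2 fold change of Angptl4 was 3.15.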

How the results depend on the processing

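Under 15 alternatives, the 18 counts of calls (all genes, members and gene lists, in each direction) stayed within 1.5 times their values. All genes tested gave 5198 higher and 5251 lower calls, and the extremes were 6385 higher without the filter on low counts and 4627 higher and 5899 lower with total counts. Without the filter 4 members were called higher in place of 3, since Angpt1 with 7 counts in all was then tested. Among the Tie pathway partners, 7 were higher and 8 lower with total counts in place of 9 and 7. The log2 fold changes of Angpt4 ranged from 1.69 to 1.90, of Angptl2 from 2.09 to 2.22, of Angptl4 from 3.10 to 3.20, of Angptl6 from -2.79 to -2.69 and of Angptl7 from -3.87 to -3.56 over 16 alternatives. The estimate for Tek ran from -0.30 to 0.0131 over 15 alternatives, and it changed sign without untreated replicate 4. Under the filter of 1 CPM in at least 4 libraries Tek was not tested. Libraries of the same replicate number showed no positive correlation of their deviations, which lay between -0.193 and -0.0336. Libraries of different numbers were not compared, so whether the numbers pair the libraries was not tested. With the replicate block 5075 genes were higher and 5077 lower. With that block, without the filter on low counts or without untreated replicate 2, 7 PPAR target genes were higher in place of 6. For Angpt2, Angpt1, Tek and Tie1, depth limits what can be seen.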

Other observations

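Genes known as targets of FOXO1, the factor that TIE2 signalling restrains and that drives Angpt2 in endothelium, moved in both directions. Of 13 such genes 12 were tested, 4 were higher and 6 lower after TGFβ1 (83.3% called, against 75.6% of all genes, of which 37.6% were higher and 38.0% lower), with a median log2 fold change of -0.32 against -0.01 over all genes tested. Pdk4 rose by 2.24 on the log2 scale (SE 0.170). Cited2, a transcriptional co-regulator, fell from 104 ± 16.5 to 25.7 ± 4.70 CPM (SD, n = 4), or -2.01 ± 0.123 (SE) on the log2 scale, and the DNA damage response gene Gadd45a fell by 1.33 (SE 0.0885). Esm1, an endothelial tip cell gene on the same list, had no count in any library. Pdk4 is also on the list of PPAR target genes, so the lists are not independent.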
